A study of Homo sapiens with 24 samples.

Results

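Adding knockdown of KAT2B to knockdown of KAT2A was examined in differentiated human keratinocytes by RNA sequencing. The comparison set the 2 Differentiated libraries of the genotype KAT2AB_KD, in which both genes are targeted, against the 2 Differentiated libraries of KAT2A_KD, in which only KAT2A is. These are 4 of the 24 libraries of the series, chosen by their genotype and stage labels. All come from N/TERT-1, an immortalised line of human keratinocytes that the labels write as nTERT-1, and the cells of all 4 libraries carry the KAT2A knockdown. Cells of the Differentiated stage were taken on day 4, per the deposited sample table. The KAT2B_KD and NT libraries of the same stage, 2 of each, show what KAT2B knockdown did without KAT2A knockdown. The labels give neither the method of knockdown, nor what NT stands for, nor whether libraries of a group came from separate cultures, so p-values measure only the spread between libraries, which may be technical.

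KAT2A and KAT2B, also called GCN5 and PCAF, are close relatives that acetylate lysines, best known on histone H3. Each can fill the acetyltransferase place in the SAGA and ATAC complexes, which help transcription start, and one can often stand in for the other. Keratinocytes that differentiate stop dividing, switch keratins and then build the cornified envelope, a sheath of crosslinked proteins under the cell membrane that includes loricrin, the small proline-rich (SPRR) and the late cornified envelope (LCE) proteins.

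The 4 libraries held 15065915 and 13254585 counts in KAT2AB_KD and 15335534 and 13517620 in KAT2A_KD, within the 8010178 to 16054003 of the series. Levels are given in CPM, counts scaled to each library's size with TMM factors, for replicate 1 and then replicate 2. Pearson's r of log CPM over 15757 genes was 0.963 between the KAT2AB_KD libraries and 0.972 between the KAT2A_KD libraries. Between the 2 genotypes it was 0.969 and 0.966 for libraries of the same replicate number, and 0.958 and 0.962 for the others. Keratinocyte markers were high throughout, with KRT5 at 12200 and 9750 CPM in KAT2AB_KD and 15600 and 14300 in KAT2A_KD. Summed over 6 markers each, melanocyte genes stood at 8.44 to 8.98 CPM in KAT2AB_KD and 6.11 to 6.55 in KAT2A_KD, with TYR and DCT at 0 in all 4 libraries. On a longer melanocyte list all 3 tested genes, PMEL, SOX10 and MITF, were higher in both KAT2AB_KD libraries without overlap, as were 18.6% of all genes. MITF was at 7.58 and 5.4 CPM in KAT2AB_KD, against 2.62 and 0.988 in KAT2A_KD (log2 1.83, adjusted p = 0.0826, edgeR); none of the 3 passed, and DESeq2 called 1 higher. Fibroblast genes stood at 35.3 to 35.5 and 36.1 to 38.7, nearly all COL1A1, while FAP, on the longer fibroblast list, was at 21.9 and 22.1 CPM in KAT2AB_KD, against 16.8 and 12.7 in KAT2A_KD (adjusted p = 0.424). Immune genes stood at 7 to 11.5 and 5.84 to 6.96, with CD3E and CD207 at 0. The part of these markers in the results was not tested.

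KAT2B was at 5.85 and 18.9 CPM in KAT2AB_KD, against 43.7 and 39.6 in KAT2A_KD. Both KAT2AB_KD libraries lay below both KAT2A_KD libraries, but they differed widely from each other, and the difference did not pass the test (log2 fold change -1.75, SE 0.47, adjusted p = 0.143, edgeR). Without KAT2AB_KD replicate 2 it did pass (adjusted p = 0.0342). KAT2B was at 4.58 and 8.59 CPM in KAT2B_KD, against 44.8 and 40.4 in NT. KAT2A, the target that both genotypes share, was at 1.98 and 6.85 CPM in KAT2AB_KD, against 3.03 and 4.94 in KAT2A_KD. The groups overlapped, and the log2 fold change was 0.16 (adjusted p = 0.963). It was 13.6 and 17.0 CPM in KAT2B_KD and 12.8 and 9.995 in NT.

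In differentiated cells 50 genes differed between KAT2AB_KD and KAT2A_KD. The late cornified envelope genes LCE3A to LCE3E and LCE5A and the envelope protease gene ASPRV1 were higher in KAT2AB_KD. The interferon-induced genes IFIT1 and IFIT3, the cell division genes CDK1, TPX2 and RRM2, and the mesenchymal filament gene VIM were lower. In all 50 both libraries of one group lay above both of the other, as in 35.7% of all genes tested. The rule for naming the largest changes required this, so a lack of overlap is no separate support for them. Of 15757 genes tested, 20 rose (0.127%) and 30 fell (0.19%), together 0.317%, at an adjusted p under 0.05 in edgeR's quasi-likelihood test. At an unadjusted p under 0.05 there were 1533. The count fell to 6 without KAT2AB_KD replicate 1, and to 12 without either KAT2A_KD library, and DESeq2 called 189. A fit of the Differentiated libraries alone called 8, and a fit with no filter on low counts called 240. In a fit that leaves out 1 library the lone library of that group is assumed to vary like the other groups. LCE3E, LCE3D and LCE3C passed whichever of the 4 was left out, and no called gene changed direction in any of these fits.

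**Figure D1:**
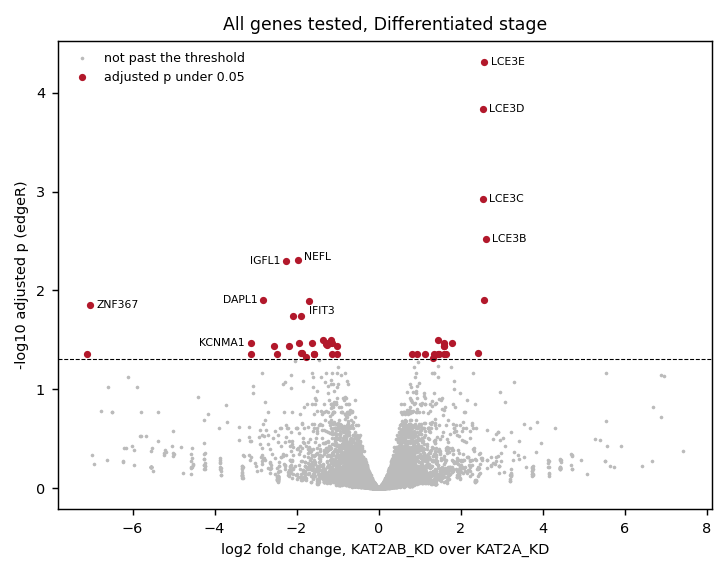
Each point is 1 of the 15757 genes tested, with the log2 fold change of KAT2AB_KD over KAT2A_KD at the Differentiated stage on the x axis and minus log10 of the edgeR adjusted p on the y axis; the dashed line is an adjusted p of 0.05. The 50 red genes passed, LCE3E, LCE3D, LCE3C and LCE3B stand highest at log2 fold changes of 2.54 to 2.63, and the 2 points near -7, ZNF367 and EDN2, had no reads in KAT2AB_KD, so that their fitted folds are no measure of size.

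The LCE3 genes lie side by side in the epidermal differentiation complex on chromosome 1 and encode small proteins of the cornified envelope. The 250 bases before the starts of the 3 genes whose calls held in every fit are shown because these genes are near copies that moved together. The sequences are from RefSeq on build GRCh38.p14, another build than the hg19 of the deposited counts. LCE3E lies at chr1:152566781-152567030 (minus strand), LCE3D at chr1:152580517-152580766 (minus strand) and LCE3C at chr1:152599984-152600233 (plus strand), each printed 5′ to 3′ on the gene's strand. Capitals mark the longest run that all 3 share.
LCE3E: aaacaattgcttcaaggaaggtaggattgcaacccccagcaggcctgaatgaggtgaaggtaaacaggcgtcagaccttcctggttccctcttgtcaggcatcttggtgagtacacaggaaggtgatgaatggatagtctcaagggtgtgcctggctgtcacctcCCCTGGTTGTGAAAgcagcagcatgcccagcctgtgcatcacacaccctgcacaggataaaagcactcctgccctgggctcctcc
LCE3D: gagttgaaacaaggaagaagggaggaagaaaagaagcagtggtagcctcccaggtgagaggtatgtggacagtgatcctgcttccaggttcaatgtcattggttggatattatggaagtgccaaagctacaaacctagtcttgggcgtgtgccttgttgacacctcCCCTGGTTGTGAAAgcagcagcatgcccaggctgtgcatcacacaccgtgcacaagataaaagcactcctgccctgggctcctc
LCE3C: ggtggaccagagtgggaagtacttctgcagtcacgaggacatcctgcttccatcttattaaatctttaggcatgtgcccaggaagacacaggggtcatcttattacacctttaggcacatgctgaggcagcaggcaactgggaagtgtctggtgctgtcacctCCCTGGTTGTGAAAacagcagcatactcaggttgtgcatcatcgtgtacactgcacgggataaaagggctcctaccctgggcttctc
The shared run has 14 bases and occurs, on either strand, in 3 of the 27305 promoter entries of the RefSeq table, those printed here. LCE3E and LCE3D share a longer run of 36 bases around it. LCE3A and LCE3B, which rose by similar folds, have entries without the run of 14 bases. That run was chosen as the longest that the 3 printed sequences share, so its rarity was favoured in advance.

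LCE3E was at 386 and 454 CPM in KAT2AB_KD, against 82.6 and 57.8 in KAT2A_KD. LCE3D was at 429 and 494 CPM in KAT2AB_KD, against 94.4 and 63.7 in KAT2A_KD. Both KAT2AB_KD libraries lay far above both KAT2A_KD libraries for each gene. The log2 fold change was 2.58 for LCE3E (SE 0.24, adjusted p = 4.89e-05, edgeR) and 2.55 for LCE3D (SE 0.26, adjusted p = 0.000148). LCE3C averaged 164 ± 26.6 CPM in KAT2AB_KD and 28.2 ± 4.34 in KAT2A_KD (SD, n = 2 each), a log2 fold change of 2.54 (SE 0.33). LCE3B, at 83.4 and 116 CPM in KAT2AB_KD against 18.3 and 13.8 in KAT2A_KD, rose by 2.63 log2, and LCE3A, at 80.4 and 93.4 against 17.8 and 11.7, rose by 2.56. The 5 genes thus had nearly the same fold and ran in parallel over the 4 libraries. The LCE3B call was lost without KAT2A_KD replicate 2 (adjusted p = 0.0612), and the LCE3A call without KAT2AB_KD 1 (0.0690), KAT2A_KD 1 (0.0765) or KAT2A_KD 2 (0.138). The ratio of LCE3E to LCE3D counts stayed within 0.814 to 1.02 over the 8 Differentiated libraries of the 4 genotypes. Since the treatment of reads that match several copies is not given in the sources used here, the split of reads among these genes is uncertain.

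LCE5A, of the same complex, was at 34.5 and 49.1 CPM in KAT2AB_KD, against 9.09 and 6.47 in KAT2A_KD, without overlap. It rose by 2.42 log2 (SE 0.49, adjusted p = 0.0426), a call lost without any 1 of the 4 libraries (adjusted p = 0.108 to 0.296). Of 26 tested genes on a list of SPRR and LCE genes, 5 rose and none fell in edgeR and in DESeq2, and 13 were higher at an unadjusted p under 0.05. The median log2 fold change of the list was 1.12, against 0 over all genes tested. LCE3B was not on that list. Both KAT2AB_KD libraries lay above both KAT2A_KD libraries for 17 of the 26, against 18.6% of all genes. The families within the list differed. The 4 listed LCE3 genes and LCE5A passed, the LCE1, LCE2 and LCE6A genes had values of 0.86 to 1.80 and did not pass, and the SPRR genes had -0.63 to 0.47. SPRR proteins, with involucrin and loricrin, make up other parts of the same envelope.

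ASPRV1 encodes the skin protease that cuts profilaggrin, and was at 279 and 285 CPM in KAT2AB_KD, against 123 and 63.0 in KAT2A_KD. The groups did not overlap, and the KAT2A_KD libraries differed from each other more than the KAT2AB_KD libraries did. It rose by 1.60 log2 (SE 0.31, adjusted p = 0.0369, edgeR). The call was lost without KAT2AB_KD 1 (adjusted p = 0.116), KAT2AB_KD 2 (0.0761) or KAT2A_KD 2 (0.295). ASPRV1 was the 1 gene to rise of 22 tested granular and cornified envelope genes, whose median log2 fold change was 0.41; 8 were higher and 1 lower at an unadjusted p under 0.05, and DESeq2 called 3 higher. KPRP, a keratinocyte proline-rich envelope protein, was at 46.9 and 41.9 CPM in KAT2AB_KD, against 16.1 and 6.38 in KAT2A_KD (log2 1.98, adjusted p = 0.109). CDSN, the adhesion protein of corneodesmosomes, was at 379 and 677 CPM, against 236 and 126 (log2 1.54, adjusted p = 0.157). Neither passed. Both were higher in KAT2AB_KD without overlap, as were 18.6% of all genes. The main envelope protein LOR and the filament-aggregating FLG had log2 fold changes of -1.02 (adjusted p = 0.373) and 0.46 (adjusted p = 0.887).

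**Figure D2:**
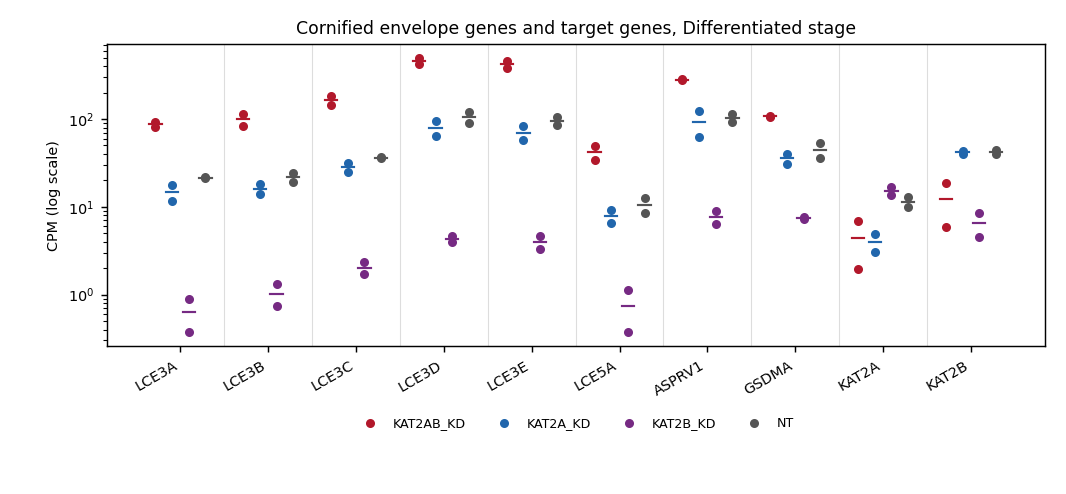
Level in CPM on a log axis of 8 genes that rose and of the targets KAT2A and KAT2B, in the Differentiated libraries of KAT2AB_KD, KAT2A_KD, KAT2B_KD and NT; each point is a library and each bar the mean of 2. The 8 genes are highest in KAT2AB_KD, close together in KAT2A_KD and NT, and lowest in KAT2B_KD, with LCE3E at 386 and 454, 82.6 and 57.8, 3.27 and 4.71, and 85.9 and 107 CPM in that order.

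GSDMA and RUSC2 were also among the 10 largest rises. GSDMA, a gasdermin of the upper epidermis, was at 109 and 107 CPM in KAT2AB_KD, against 40.3 and 30.8 in KAT2A_KD (log2 1.60, SE 0.33, adjusted p = 0.0439, edgeR). RUSC2, which takes part in vesicle transport, was at 8.40 and 13.4 CPM, against 3.11 and 3.86 (log2 1.65, adjusted p = 0.0439). Neither overlapped between the groups, and each call was lost without any 1 of the 4 libraries, at adjusted p values of 0.0925 to 0.328 for GSDMA and 0.0767 to 0.323 for RUSC2. A further 9 genes that rose, named here after their values were seen, were SPNS2, which exports sphingosine 1-phosphate, RHOF, a small GTPase, AMPD2, an AMP deaminase, GRB7, a signalling adaptor, POLM, a DNA polymerase, DENND2D, YOD1, a deubiquitinase, MGLL, the monoacylglycerol lipase, and MBD1, which binds methylated DNA. Their log2 fold changes ran from 0.81 for MBD1 to 1.59 for AMPD2. SPNS2 was at 57.7 and 71.7 CPM in KAT2AB_KD, against 29.8 and 17.9 in KAT2A_KD, and MGLL at 566 and 614, against 312 and 305. Calls of these 9 genes were also lost without 1 library: all 9 without KAT2AB_KD 1 or KAT2A_KD 2 and, except for SPNS2, without KAT2A_KD 1 and, except for AMPD2, without KAT2AB_KD 2, at adjusted p values up to 0.366.

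Of 34 interferon response genes tested, 5 fell. Interferons switch on antiviral genes through a promoter element, the interferon-stimulated response element (ISRE). The 250 bases before the starts of IFIT1 and IFIT3, which fell most of the interferon genes that passed, are shown because both carry this element. IFIT1 lies at chr10:89392373-89392622 (plus strand) and IFIT3 at chr10:89327747-89327996 (plus strand), from RefSeq on GRCh38.p14, printed 5′ to 3′. Capitals mark matches to the core of this element, a pair of GAAA half-sites with 2 bases between them on either strand, which read as TTTC half-sites on the other.
IFIT1: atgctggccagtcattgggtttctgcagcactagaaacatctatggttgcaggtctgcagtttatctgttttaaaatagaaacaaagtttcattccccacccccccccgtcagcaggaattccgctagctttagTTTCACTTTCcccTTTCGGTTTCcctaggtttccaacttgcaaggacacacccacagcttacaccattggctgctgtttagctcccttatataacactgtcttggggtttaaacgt
IFIT3: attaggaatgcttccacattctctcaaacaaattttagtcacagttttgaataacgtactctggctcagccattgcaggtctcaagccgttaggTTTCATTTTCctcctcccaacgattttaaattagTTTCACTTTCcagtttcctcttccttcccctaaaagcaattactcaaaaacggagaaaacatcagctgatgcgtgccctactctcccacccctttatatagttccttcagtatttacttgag
Each promoter holds 2 matches, which do not overlap. Among all 27305 promoter entries 3.07% hold at least 1 match in the same window. EPSTI1 and PLSCR1, which also fell, hold one as well, and HERC6, which fell too, has an entry without one. Of the 34 interferon response genes tested 27 have an entry, too few for a check over the list. Of these 27, 15 (55.6%) hold a match, most of them genes that did not pass. The called genes of the list include 4 with an entry, of which 3 hold a match. A match describes the letters and not a bound site.

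IFIT3, which with IFIT1 acts against viral RNA, was at 3.79 and 8.29 CPM in KAT2AB_KD, against 30.2 and 15.1 in KAT2A_KD. IFIT1, which binds foreign RNA ends, was at 4.20 and 11.03 CPM in KAT2AB_KD, against 38.1 and 20.4 in KAT2A_KD. In both genes KAT2AB_KD 1 and KAT2A_KD 1 were the extremes, and replicate 2 of the 2 genotypes lay closer together without overlap. IFIT3 fell by 1.90 log2 (SE 0.33, adjusted p = 0.0183, edgeR) and IFIT1 fell by 1.94 (SE 0.37, adjusted p = 0.0337). Both calls were lost without KAT2AB_KD 1 (adjusted p = 0.174 for IFIT3 and 0.188 for IFIT1) or KAT2A_KD 1 (0.248 and 0.298).

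EPSTI1, an interferon-induced gene of epithelial cells, was at 6.34 and 5.55 CPM in KAT2AB_KD, against 21.3 and 17.2 in KAT2A_KD. HERC6, of the HERC ubiquitin ligase family, was at 9.56 and 16.9 CPM in KAT2AB_KD, against 33.2 and 30.3 in KAT2A_KD. Neither overlapped. EPSTI1 fell by 1.70 log2 (adjusted p = 0.0127) and HERC6 fell by 1.26 (0.0354). The EPSTI1 call was lost without KAT2AB_KD 1 (adjusted p = 0.0855), KAT2AB_KD 2 (0.0651) or KAT2A_KD 1 (0.123). The HERC6 call was lost without KAT2AB_KD 1 (0.207), KAT2A_KD 1 (0.222) or KAT2A_KD 2 (0.138). TRIM22 and PLSCR1, interferon-induced genes that were not on the list and are named after their values were seen, fell by 1.01 and 1.14 log2. The TRIM22 call was lost without KAT2AB_KD 1 (adjusted p = 0.229), KAT2A_KD 1 (0.147) or KAT2A_KD 2 (0.276), and the PLSCR1 call without any 1 of the 4 libraries (0.0725 to 0.274).

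Of 34 interferon response genes tested, 5 fell and none rose, against 0.19% of all genes called lower. Their median log2 fold change was -0.97, 31 were below 0, and for 25 both KAT2AB_KD libraries lay below both KAT2A_KD libraries, against 17.1% of all genes. DESeq2 called 7 lower and none higher, and 20 were lower and none higher at an unadjusted p under 0.05. The mean of log2(CPM + 0.5) over the list was 2.98 and 4.1 in KAT2AB_KD, against 4.63 and 4.42 in KAT2A_KD and 3.35 and 3.15 in NT. KAT2AB_KD 1 thus lay below both NT libraries, while KAT2AB_KD 2 lay above them and much nearer to KAT2A_KD. Listed genes that did not pass included ISG15, a ubiquitin-like modifier (log2 -1.83, adjusted p = 0.150), MX1, an antiviral GTPase (-1.31, 0.206), and OAS2, which makes an activator of RNA decay (-1.40, 0.168). At the Differentiated stage the KAT2A_KD libraries were the high ones for IFIT1 and IFIT3 among all 4 genotypes. IFIT3 was at 2.62 and 2.47 CPM in KAT2B_KD, against 2.45 and 1.41 in NT, and IFIT1 at 5.05 and 3.21, against 2.89 and 3.87. The median of the list was 1.26 in KAT2A_KD over NT and 0.53 in KAT2AB_KD over NT, comparisons that share NT libraries with each other and 2 libraries each with the comparison of the knockdowns. Of 18 genes of MHC class I and antigen processing none passed in edgeR, while 4 were lower at an unadjusted p under 0.05 and DESeq2 called 1 lower. PSMB8, an immunoproteasome subunit, was at 65.3 and 61.4 CPM in KAT2AB_KD, against 117 and 123 in KAT2A_KD (log2 -0.93, adjusted p = 0.0717).

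Of genes of dividing cells, TPX2, CDK1 and RRM2 fell, at low levels. TPX2, which assembles the mitotic spindle, was at 3.96 and 3.58 CPM in KAT2AB_KD, against 7.37 and 11.05 in KAT2A_KD. CDK1, the kinase that starts mitosis, was at 1.07 and 2.05 CPM, against 4.09 and 5.39, and RRM2, the small subunit of ribonucleotide reductase, at 2.97 and 3.96, against 7.29 and 10.4. None overlapped between the groups. TPX2 fell by 1.29 log2 (adjusted p = 0.0352, edgeR), CDK1 fell by 1.58 (0.0439) and RRM2 fell by 1.35 (0.0317). The TPX2 call was lost without KAT2AB_KD 1 (adjusted p = 0.146), KAT2AB_KD 2 (0.123) or KAT2A_KD 2 (0.295). The CDK1 call was lost without KAT2AB_KD 1 (0.228), KAT2A_KD 1 (0.123) or KAT2A_KD 2 (0.282), and the RRM2 call without KAT2AB_KD 1 (0.188) or KAT2A_KD 2 (0.194). In bulk RNA, fewer dividing cells and less of these RNAs per cell cannot be told apart, and the same holds for every other gene group here.

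Of 28 mitosis genes 2 fell and none rose, with a median log2 fold change of -0.82, and of 28 DNA replication genes 1 fell and none rose, with a median of -0.65, against 0.19% of all genes called lower. DESeq2 called 3 and 4 lower. Both KAT2AB_KD libraries lay below both KAT2A_KD libraries for 18 of the mitosis and 20 of the replication genes, against 17.1% of all genes. HMMR, a spindle protein, had 0.412 and 0 CPM in KAT2AB_KD, against 1.23 and 1.62 in KAT2A_KD (log2 -2.78, adjusted p = 0.136). RFC3, a subunit of the clamp loader, was at 0.165 and 0.913 CPM, against 2.62 and 1.98 (log2 -2.05, adjusted p = 0.0516), and MCM2, of the replicative helicase, at 1.40 and 0.684, against 3.36 and 2.51 (adjusted p = 0.104). None of these passed with all libraries, and RFC3 did without KAT2AB_KD 2 (adjusted p = 0.00823). Called genes of the cell cycle outside the lists were HJURP, which loads the centromere histone, LMNB1, the nuclear lamin B1, ZWINT of the kinetochore and CDCA5, the cohesin protector. HJURP was at 0.165 and 0.380 CPM, against 1.72 and 1.62, and LMNB1 at 0.247 and 0.532, against 2.13 and 1.53. HJURP fell by 2.55 log2 (adjusted p = 0.0365) and LMNB1 fell by 2.19 (0.0365), and ZWINT and CDCA5, named after their values were seen, fell by 1.88 and 1.57. Of these calls ZWINT held without KAT2AB_KD 1 and LMNB1 without KAT2AB_KD 2, and leaving out any other of the 4 libraries ended each call, at adjusted p values of 0.0613 to 0.346. These genes rest on few reads, so counting error is a large part of their spread.

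**Figure D3:**
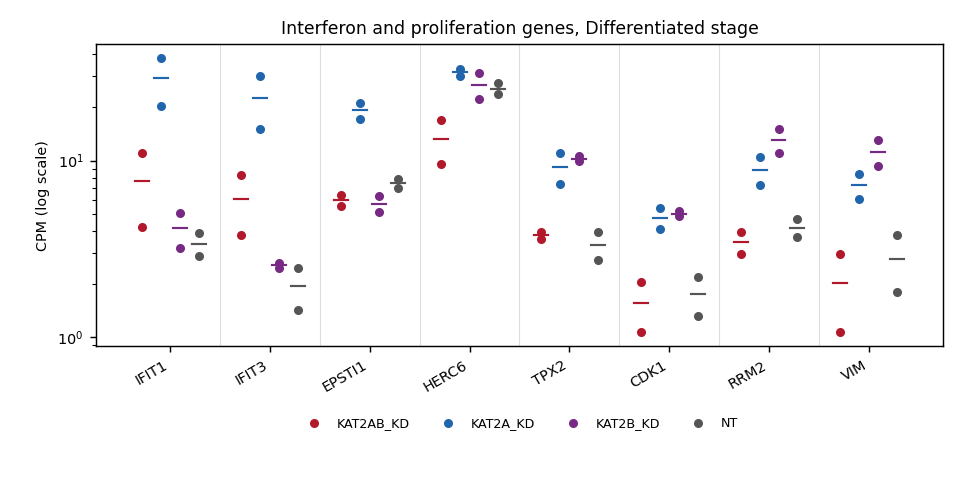
Level in CPM on a log axis of 8 genes that fell in KAT2AB_KD relative to KAT2A_KD, in the Differentiated libraries of 4 genotypes; each point is a library and each bar the mean of 2. For each gene both KAT2AB_KD libraries lie below both KAT2A_KD libraries; IFIT1 and IFIT3 are highest in KAT2A_KD, while TPX2, CDK1, RRM2 and VIM are as high or higher in KAT2B_KD as in KAT2A_KD and low in KAT2AB_KD and NT.

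VIM, the intermediate filament protein of mesenchymal cells, was at 2.97 and 1.06 CPM in KAT2AB_KD, against 8.43 and 6.02 in KAT2A_KD, without overlap. It fell by 1.86 log2 (SE 0.38, adjusted p = 0.0426, edgeR), a call lost without KAT2AB_KD 2 (adjusted p = 0.213), KAT2A_KD 1 (0.281) or KAT2A_KD 2 (0.0766). The strand setting of the authors' counting is not given in the sources used here, so reads of VIM and of its antisense RNA cannot be told apart. VIM was the 1 gene to fall, with none to rise, of 22 mesenchymal and TGF-beta response genes, whose median was -0.02. DESeq2 also called 1, and 5 were lower at an unadjusted p under 0.05.

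The other large falls belonged to no list. DAPL1, known from epithelia that begin to differentiate, was at 5.19 and 3.35 CPM in KAT2AB_KD, against 30.7 and 29.0 in KAT2A_KD. IGFL1, a small secreted protein of the insulin-like growth factor family, was at 9.31 and 10.2 CPM, against 39.4 and 53.3. NEFL, the light neurofilament chain, was at 1.65 and 2.28 CPM, against 7.86 and 7.63. In all 3 the replicates lay close together and the groups far apart. DAPL1 fell by 2.81 log2 (SE 0.45, adjusted p = 0.0124, edgeR), IGFL1 fell by 2.25 (SE 0.34, adjusted p = 0.00501) and NEFL fell by 1.97 (SE 0.29, adjusted p = 0.00492). The NEFL call was lost without KAT2AB_KD 1 (adjusted p = 0.0828), the IGFL1 call without KAT2AB_KD 1 (0.0788) or KAT2A_KD 2 (0.0530), and the DAPL1 call without any library but KAT2A_KD 2 (0.0686 to 0.0695).

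QPCT, which cyclises glutamine at protein ends, was at 0.330 and 0.837 CPM in KAT2AB_KD, against 6.63 and 3.68 in KAT2A_KD. KCNMA1, the pore of a calcium-activated potassium channel, was at 0.165 and 0.304 CPM, against 1.47 and 2.78, and the transcription factor gene MECOM at 0.330 and 0.0761, against 1.47 and 0.808. MCMDC2, a relative of the replicative helicase known in meiosis, was at 3.30 and 2.36 CPM, against 13.6 and 10.2. None overlapped, which the rule that named them required. The log2 fold changes were -3.11 for QPCT, -3.11 for KCNMA1, -2.48 for MECOM and -2.08 for MCMDC2. Their adjusted p values in edgeR were 0.0439, 0.0337, 0.0439 and 0.0183 in that order. ZNF367, a zinc finger gene, had no reads in KAT2AB_KD, against 18 and 11 reads in KAT2A_KD, and was at least 10.5-fold lower, with the 2 empty libraries together set to a floor of 3 counts. EDN2, which encodes endothelin 2 and was named after its values were seen, also had no reads in KAT2AB_KD, against 12 and 18, and was at least 10.8-fold lower. These bounds cover counting error only. The KCNMA1 call held without KAT2A_KD 1 and the MCMDC2 and ZNF367 calls without KAT2A_KD 2; leaving out any other of the 4 libraries ended these calls, and leaving out any 1 ended those of QPCT, MECOM and EDN2, at adjusted p values of 0.0558 to 0.389. LOX, LPAR1, NR2F2, ANP32A, TCF19 and LINC00623 also fell, by 1.15 to 1.78 log2, and were named after their values were seen. Of these, NR2F2 held without KAT2A_KD 2 and LINC00623 without KAT2AB_KD 2, and the calls were otherwise lost when any 1 of the 4 libraries was left out (adjusted p = 0.0530 to 0.379).

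Most lists held no gene that passed. Over all 15757 genes, against which the list counts stand, 732 were higher and 801 lower at an unadjusted p under 0.05. DESeq2 called 100 of all genes higher and 89 lower. Of 20 basal keratinocyte and adhesion genes none was called by edgeR, 2 were lower at an unadjusted p under 0.05 and DESeq2 called 1 lower. TP63, the master factor of the epithelial lineage, was at 90.8 and 99.3 CPM in KAT2AB_KD, against 177 and 139 in KAT2A_KD (log2 -0.73, adjusted p = 0.0888). Of 22 spinous differentiation genes neither edgeR nor DESeq2 called any, and 2 were lower at an unadjusted p under 0.05. KRT1, the keratin of early differentiation, was at 3740 and 2250 CPM in KAT2AB_KD, against 5840 and 4180 in KAT2A_KD (log2 -0.74, adjusted p = 0.373). Of 24 epidermal lipid genes neither tool called any and 4 were higher at an unadjusted p under 0.05. Of 31 subunits of the SAGA and ATAC complexes neither tool called any, 1 was lower at an unadjusted p under 0.05, and the median was 0.00. That one was TADA2A, an adaptor of the ATAC acetyltransferase module, at 2.22 and 4.94 CPM in KAT2AB_KD, against 8.02 and 9.52 in KAT2A_KD (log2 -1.28, adjusted p = 0.168).

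All 40 cytosolic ribosomal protein genes tested were below 0, at -0.92 to -0.12 with a median of -0.52, but none passed in edgeR. At an unadjusted p under 0.05, 8 were lower, and DESeq2 called 1. RPL11 was at 330 and 216 CPM in KAT2AB_KD, against 621 and 409 in KAT2A_KD (log2 -0.92, adjusted p = 0.171). For RPL11 the groups did not overlap, and the 2 libraries of each genotype also lay apart. Both KAT2AB_KD libraries lay below both KAT2A_KD libraries for 19 of the 40, against 17.1% of all genes. The mean of log2(CPM + 0.5) over the list was 9.95 and 9 in KAT2AB_KD, against 10.2 and 9.94 in KAT2A_KD. KAT2AB_KD 1 thus lay level with KAT2A_KD 2, and KAT2AB_KD 2 lay far below the other libraries. Of 14 genes for the EGF receptor and its ligands edgeR called none, 5 were higher at an unadjusted p under 0.05 and DESeq2 called 2 higher; EREG, a ligand, was at 145 and 90.8 CPM, against 63.7 and 61.6 (log2 0.91, adjusted p = 0.105), and passed without KAT2AB_KD 2 (adjusted p = 0.0341). Of 24 NRF2 and xenobiotic response genes edgeR called none and DESeq2 called 2 higher, with 2 higher and 5 lower at an unadjusted p under 0.05; TXNRD1, thioredoxin reductase, was at 74.6 and 83.3 CPM, against 36.7 and 44.4 (log2 0.96, adjusted p = 0.0536). Of 25 barrier stress and inflammation genes edgeR called none and DESeq2 called 2 higher, with 6 higher and 2 lower at an unadjusted p under 0.05; S100A7, a psoriasis-associated protein, was at 782 and 467 CPM, against 201 and 231 (log2 1.53, adjusted p = 0.130). Its reads may be shared with the near copy S100A7A. Of 34 lists, which hold 722 tested genes, 7 had a gene that passed.

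**Figure D4:**
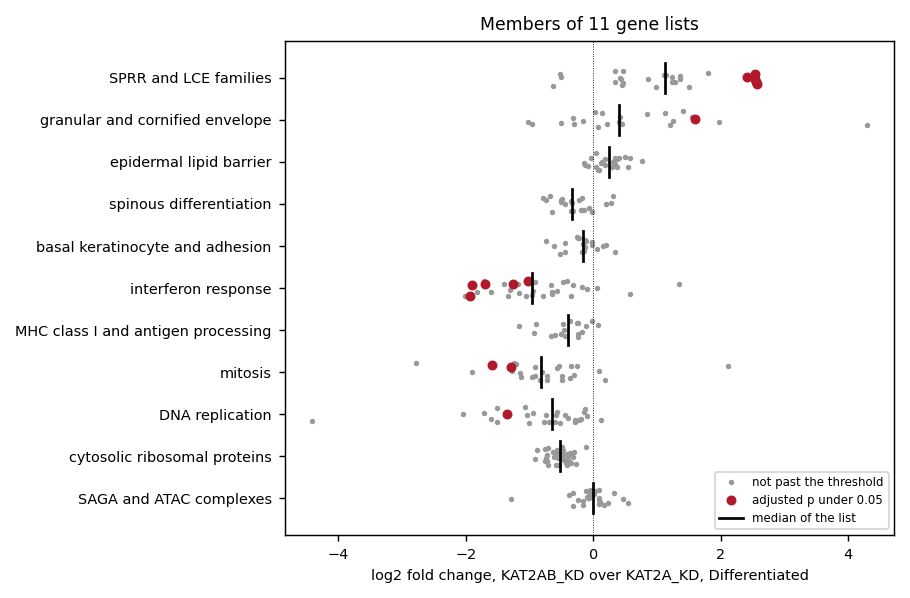
Log2 fold change of KAT2AB_KD over KAT2A_KD at the Differentiated stage on the x axis for the tested members of 11 gene lists on the y axis; red points passed an adjusted p of 0.05 and black bars are medians. Passing genes lie to the right among SPRR, LCE and granular genes and to the left among interferon, mitosis and replication genes, and the 40 ribosomal protein genes cluster around -0.52.

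For many genes the effect of KAT2B knockdown differed with whether KAT2A was also knocked down, and for the LCE3 genes it had opposite directions. LCE3E was at 386 and 454 CPM in KAT2AB_KD, against 82.6 and 57.8 in KAT2A_KD, but at 3.27 and 4.71 in KAT2B_KD, against 85.9 and 107 in NT. KAT2A_KD and NT thus had similar levels, the double knockdown lay above both and the KAT2B knockdown far below both. The difference between the 2 effects was 7.16 log2 for LCE3E (SE 0.36, adjusted p = 3.48e-09, edgeR), 7.14 for LCE3D, 7.05 for LCE3B and 7.58 for LCE3A. It was 6.71 for LCE3C, 6.26 for LCE5A and 5.37 for ASPRV1 (adjusted p = 4.26e-06), which was at 8.89 and 6.35 CPM in KAT2B_KD, against 114.5 and 93.0 in NT. These differences passed when any 1 of the 8 libraries was left out, with adjusted p values of at most 0.00184. The KAT2AB_KD over KAT2A_KD and the KAT2B_KD over NT comparisons share no library. KAT2B itself was at 5.85 and 18.9 CPM in KAT2AB_KD, against 4.58 and 8.59 in KAT2B_KD. Unequal knockdown of KAT2B cannot be told apart from an influence of KAT2A knockdown, and its part was not tested.

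Over all genes this difference between backgrounds passed for 876 (5.56% of 15757), 536 above 0 (3.4%) and 340 below 0 (2.16%). This count fell when 1 library was left out, except without KAT2AB_KD 1 or KAT2B_KD 2, where it rose. KAT2B_KD alone differed from NT in 764 genes (4.85%), of which 263 rose (1.67%) and 501 fell (3.18%), against 50 for KAT2AB_KD and KAT2A_KD. Of the 20 genes that rose in KAT2AB_KD over KAT2A_KD, 19 were below 0 in KAT2B_KD over NT, 15 of them past the threshold. Of the 30 that fell, 26 were above 0, 9 of them past the threshold. The difference between backgrounds contains the difference by which these genes were chosen, so passes among them were favoured in advance. It passed for 19 of the 20 and 26 of the 30. The exceptions among those that fell were IGFL1, QPCT, LOX and EPSTI1. IGFL1 was at 9.31 and 10.2 CPM in KAT2AB_KD and 39.4 and 53.3 in KAT2A_KD, and at 70.0 and 46.9 in KAT2B_KD and 150 and 194 in NT, lower with KAT2B knockdown in both backgrounds (difference -0.69 log2, adjusted p = 0.422). Across the 15757 genes the log2 fold changes of the 2 comparisons had a Pearson correlation of -0.201 and a Spearman correlation of -0.291, and 61.9% had opposite signs, as a description over genes that are not independent.

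**Figure D5:**
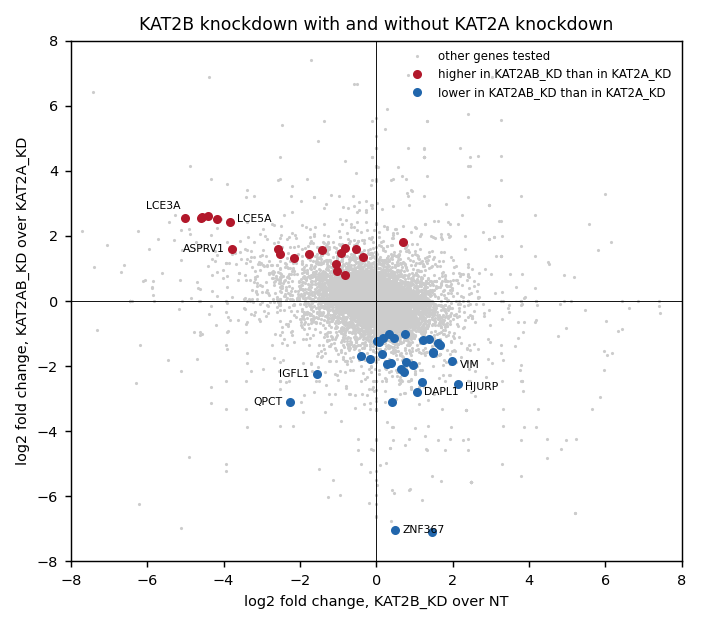
Log2 fold change of KAT2AB_KD over KAT2A_KD on the y axis against that of KAT2B_KD over NT on the x axis, at the Differentiated stage, for the genes tested; 3 genes lie outside the plotted range of 8. Of the genes that rose (red) 19 of 20 lie left of 0, LCE3A being farthest left at -5.02, and most genes that fell (blue) lie right of 0, with IGFL1, QPCT, EPSTI1 and LOX on the left.

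Part of several lists passed the test of the difference between backgrounds, which 3.4% of all genes passed above 0 and 2.16% below 0. Of 26 SPRR and LCE genes the difference between backgrounds was above 0 and past the threshold for 18, of 22 granular and cornified envelope genes for 14 and of 24 epidermal lipid genes for 12, and for none of these genes past it below 0. In KAT2B_KD over NT, which enters that difference, 17, 15 and 13 of these genes were called lower, against 3.18% of all genes. CDSN, at 379 and 677 CPM in KAT2AB_KD against 236 and 126 in KAT2A_KD, was at 20.2 and 47.1 in KAT2B_KD, against 363 and 299 in NT. KPRP was at 0.561 and 1.57 CPM in KAT2B_KD, against 11.6 and 10.9 in NT, and both genes passed with any 1 library left out. Of the 28 mitosis genes 19 and of the 28 DNA replication genes 13 had a difference below 0 past the threshold. TPX2 was at 10.6 and 9.94 CPM in KAT2B_KD, against 3.94 and 2.74 in NT, and VIM at 13.0 and 9.27, against 3.77 and 1.79. The difference between backgrounds was -2.90 log2 for TPX2, -3.08 for CDK1 and -3.84 for VIM, and each passed with any 1 library left out. TP63 was at 227.5 and 207 CPM in KAT2B_KD, against 89.8 and 109 in NT, a difference between backgrounds of -1.86 log2 (adjusted p = 0.000219). In the interferon list 7 of 34 genes had a difference below 0 past the threshold and 1 above, and the median was -0.35 in KAT2B_KD over NT, against -0.97 in KAT2AB_KD over KAT2A_KD.

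Before differentiation few genes passed. KAT2AB_KD and KAT2A_KD differed in 1 gene at the Confluent stage (0.00635%) and in none at the Subconfluent stage, where 819 genes had an unadjusted p under 0.05 in edgeR and DESeq2 called 10. The Confluent gene was TMPRSS13, a membrane serine protease, at 6.93 and 6.80 CPM in KAT2AB_KD, against 0.801 and 0.323 in KAT2A_KD (log2 3.52, adjusted p = 0.00282). DESeq2 called 15 there. LCE3E was at 1.86 and 1.69 CPM in KAT2AB_KD, against 0.742 and 1.09 in KAT2A_KD, at Subconfluent, and at 1.43 and 1.67, against 0.641 and 0.646, at Confluent. The KAT2AB_KD libraries thus lay above the KAT2A_KD libraries at each stage, at levels far below those of differentiated cells. Log2 fold changes were 0.97 and 1.25 and did not pass (adjusted p = 0.813 and 0.907), and the test of the change between Confluent and Differentiated gave 1.33 (adjusted p = 0.785). VIM was at 13.4 and 13.5 CPM in KAT2AB_KD, against 35.3 and 44.6 in KAT2A_KD, at Subconfluent, and at 8.78 and 9.30, against 34.0 and 24.6, at Confluent, with log2 fold changes of -1.57 (adjusted p = 0.270) and -1.70 (0.114). VIM was thus lower in both KAT2AB_KD libraries at each stage.

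At Confluent, IFIT3 and TPX2 were close between KAT2AB_KD and KAT2A_KD. IFIT3 was at 13.0 and 13.8 CPM in KAT2AB_KD, against 12.2 and 10.3 in KAT2A_KD, and TPX2 at 157 and 199, against 167 and 206, the TPX2 values overlapping. In NT at Confluent IFIT3 was far higher, at 82.3 and 79.2 CPM. The median log2 fold change of the interferon list was 0.32 at Confluent and 0.43 at Subconfluent, against -0.97 at Differentiated. Of the 20 genes that rose in differentiated cells 15 had the same sign at Confluent and 16 at Subconfluent, and of the 30 that fell 18 and 19. The test of whether the difference between the genotypes changed from Confluent to Differentiated passed for 1 gene (0.00635%), against 793 at an unadjusted p under 0.05, and DESeq2 called 18. That gene was NEFL, at 18.9 and 27.9 CPM in KAT2AB_KD, against 15.1 and 13.2 in KAT2A_KD, at Confluent, and lower in KAT2AB_KD at Differentiated, a change of -2.69 log2 (adjusted p = 0.0143). The NEFL call was lost without KAT2AB_KD Differentiated 1 (adjusted p = 0.101), KAT2A_KD Differentiated 1 (0.0904) or 2 (0.0617), KAT2AB_KD Confluent 2 (0.123) or KAT2A_KD Confluent 2 (0.197).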

How the data were processed

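RNA was selected by polyA and sequenced single-end with a directional kit, per the labels' protocols. Reads were aligned with Bowtie2 to hg19 and counted per gene with featureCounts, per the submitters' processing notes, which also name FastQC and DESeq2; versions, annotation, and the settings for strand and multi-mapping reads are not given in the sources used here. The authors deposited the raw counts used here, and a second table whose signal values the authors made by dividing those counts by 1 size factor per library; dividing the counts gave that table back within a relative 5e-07, and it served only as this check. The sample table's replicates 2 and 3 are called 1 and 2. The count table has 26364 genes, of which 26 of 28 symbols turned into dates were restored, and 1 column that matches no sample was not used.

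The 24 libraries in 12 groups were fitted together in edgeR 4.0.16 (R 4.3.3) with TMM scaling, filterByExpr (15757 genes kept), quasi-likelihood tests and Benjamini-Hochberg adjustment over all of them, which left 12 residual degrees of freedom (common BCV, the spread between libraries of a group, 0.218). Every adjusted p in the text is from this fit unless another tool or a left-out library is named. Those given for a left-out library are from a refit of the same model to the other libraries. The 2 differences of differences, between backgrounds and between stages, are contrasts of the same fit. Named genes are the 10 highest and 10 lowest fold changes that passed at a mean log2 CPM of at least 1 with groups that do not overlap, up to 4 genes per list by lowest p, other list members whose values are given, the 5 highest and lowest in each difference of differences, and both targets. Some genes that meet this rule are not reported here. The members and lists were chosen with earlier results of these data known. Alternatives were RLE factors, no filter, DESeq2 1.42.0, fewer libraries in the fit, a replicate block and each library left out. The steps were tested on simulated data. Genes under 1 CPM rest on few reads, and floors cover counting error only.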

Additional observations from a re-analysis of the deposited data

Results flagged for a closer look

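Both tests of a difference between differences returned genes. The effect of adding KAT2B knockdown differed between the KAT2A_KD background and NT in 876 genes, and the KAT2AB_KD to KAT2A_KD difference changed between Confluent and Differentiated in 1, NEFL, by -2.69 log2.

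Among genes whose log2 CPM averaged 1 or more, the largest differences between backgrounds above 0 were in the envelope genes LCE3A (7.58 log2), LCE3E (7.16), LCE3D (7.14) and LCE3B (7.05), whose calls held with any 1 of the 8 libraries left out. PLA2G16, a phospholipase gene, followed at 6.90, with 0.412 and 0.456 CPM in KAT2AB_KD against no reads in KAT2A_KD, and 0.0935 and 0.0747 CPM in KAT2B_KD against 0.0876 and 0.377 in NT. Its call was lost without KAT2A_KD 1 (adjusted p = 0.0643), KAT2A_KD 2 (0.0624) or NT 2 (0.244).

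Among genes at that level, the 5 fitted values farthest below 0 were in genes with no reads in NT, so that the fitted values are no bound on size; genes at lower levels went farther. They were -14.2 for MCCD1, -8.73 for SPOCD1, -7.81 for PRKCQ, a protein kinase C gene, -7.77 for CDC25C, a phosphatase of the cell cycle, and -7.69 for TRAIP, a ubiquitin ligase. MCCD1 had reads in KAT2A_KD 1 (1.31 CPM) and KAT2B_KD (4.49 and 0.598 CPM) and in none of the other Differentiated libraries. PRKCQ was at 0.577 and 0.152 CPM in KAT2AB_KD against 0.737 and 0.180 in KAT2A_KD, and at 1.40 and 1.87 CPM in KAT2B_KD. SPOCD1 reached 0.374 CPM at most in the Differentiated libraries, TRAIP 0.898 and CDC25C 1.196. Each of these 5 calls was lost when 1 library was left out, MCCD1 without KAT2B_KD 1 (adjusted p = 0.0588) or KAT2A_KD 1, PRKCQ without KAT2A_KD 1 (0.136), NT 1 (0.0556) or NT 2 (0.0545), SPOCD1 without any library but KAT2AB_KD 1 or KAT2B_KD 1, CDC25C without KAT2A_KD 1, KAT2AB_KD 2, KAT2B_KD 2 or either NT library, and TRAIP without KAT2AB_KD 1, KAT2B_KD 2, KAT2A_KD 2 or either NT library.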

How the results depend on the processing

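The count of genes that differed between KAT2AB_KD and KAT2A_KD was 50 as reported, 49 with RLE factors, 240 with no filter on low counts, 189 in DESeq2 and 8 when either the compared or the Differentiated libraries were fitted alone. The count for the difference between backgrounds, 876 as reported, was 885, 1337 and 1188 in the first 3 of these settings and 347 in the fits of fewer libraries. For the difference between stages, 1 as reported, it was 1 with RLE factors, 91 with no filter, 18 in DESeq2 and 0 with the compared libraries alone. The share of calls that were higher was 40% as reported, 52.9% in DESeq2 and 75% with the compared libraries alone. Leaving out 1 library gave 6 to 56, 450 to 947 and 0 to 15 genes for the 3 counts. KAT2A, which was not called, turned to -0.14 log2 without KAT2A_KD 1 and to -1.01 without KAT2AB_KD 2, the lowest of a range that reached 0.80. With the replicate block the counts were 75, 1003 and 2. The deviations of KAT2AB_KD and KAT2A_KD from their means correlated at 0.228 by replicate number. Over all 66 pairs of groups the median was 0.118, 37 pairs exceeded 0.1 and the lowest was -0.256. Libraries of the 2 genotypes with the same number correlated at 0.969 and 0.966 in log CPM, the others at 0.958 and 0.962. The numbers were not used to pair libraries in the main fit, and whether they mark a shared batch was not tested. Over the named genes, fits with 1 library left out ended 186 calls, added 3, left 273 outcomes on the same side and reversed 2, both of KAT2A. The cause of these shifts was not tested. Depth limits genes under 1 CPM, which rest on few reads.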
